A study of Arabidopsis thaliana with 4 samples.

Results

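The ATG8 family of Arabidopsis thaliana comprises 9 genes, ATG8A to ATG8I, which were taken by locus identifier from a table of transcript levels for 37686 genes. All 9 were listed, carried an ATG8 name in the annotation, and exceeded the limit of a mean of 1 TPM over the libraries that was set for testing. TPM (transcripts per 1000000) is a read count divided by transcript length and scaled to 1000000 per library, so levels of different genes can be compared. The libraries came from wild-type Col-0 seedlings that were 12 days old and had grown at 22 °C with a day of 16 h and a night of 8 h. Each leaf was detached together with some petiole, and the wounded region was taken at once (time 0) or after 2 days on B5 culture medium with sucrose at 22 °C in the dark, with 2 libraries per group. Time since detachment, darkness, medium and age differed together between the groups and cannot be told apart. Whether replicate libraries stem from separate plants is not stated in the labels, and the p-values below therefore rest on library-to-library spread that may be technical.

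ATG8 proteins are small relatives of ubiquitin that are attached to a membrane lipid on the growing autophagosome, the double-membrane vesicle that carries cell material to the vacuole for breakdown. Before attachment the protease ATG4 trims the protein to a glycine. The enzymes ATG7 and ATG3, with a complex of ATG12, ATG5 and ATG16, then join that glycine to the lipid, and cargo receptors bind the attached ATG8. In plants autophagy recycles nutrients, and ATG8 transcripts are known to rise during carbon or nitrogen starvation and leaf senescence.

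The ends of the coding sequences show how the members differ at the trimming site. Each line gives the last 30 coding bases, 5′ to 3′ on the coding strand and stop codon included, from the RefSeq annotation of TAIR10.1, with the codon of the conserved glycine in capitals.
ATG8A (AT4G21980): aacacttttGGAtctcttaccgttgcttga
ATG8B (AT4G04620): aacacatttGGTggatctttctactgctaa
ATG8C (AT1G62040): agtggagagaacacctttGGTttggtttaa
ATG8D (AT2G05630): ggtgagaacacgttcGGGatcttcttctaa
ATG8E (AT2G45170): gagaacacattcGGTgcttcttcaatctaa
ATG8F (AT4G16520): gaaaacacatttGGAtttggatctccataa
ATG8G (AT3G60640): gaaaacacttttGGAtcgtcaatgacttaa
ATG8H (AT3G06420): tgctacagcaccgagaaaactttcGGCtaa
ATG8I (AT3G15580): tgctatagcagtgagaaaacctttGGTtga
In ATG8A to ATG8G between 2 and 5 codons follow the glycine, so ATG4 has a tail to remove, whereas in ATG8H and ATG8I the glycine codon is the last before the stop. The translated sequences of ATG8A to ATG8D were 78.3% to 87.7% identical to each other and those of ATG8E to ATG8G were 66.1% to 78.5% identical. Between these sets identity was 61.3% to 75.6%, a range that overlaps the one within ATG8E to ATG8G only through pairs with ATG8F. ATG8E and ATG8G, at 78.5%, lie above it. ATG8H and ATG8I were 67.8% identical to each other and 45% to 56.5% identical to the other 7. The low ends 66.1%, 61.3% and 45% all come from pairs with ATG8F. ATG8C and ATG8F were 73.3% identical over aligned coding bases, against 61.3% in protein. Only 110 and 109 of the 121 residues of ATG8F aligned with ATG8A and ATG8B. Whether another annotated transcript of ATG8F gives other values was not tested. The members are taken below in these 3 sets, of which ATG8E to ATG8G follows the usual grouping of the family. With the ATG8F sequence used, these identities do not set that group apart. Little of this likeness is exact over 50 bases. Of the 50-base windows of their transcripts, 4 occur in both ATG8A and ATG8B (0.4% and 0.3% of theirs). No other member shares one with another gene on the same strand. Only exact matches were counted, and 50 bases need not be the length of a read. Transcripts of AT3G15578 run opposite to 14.2% of the ATG8I windows. That gene was listed at 0 in all 4 libraries, and the strand setting of the counting is not given in the sources used here.

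After 2 days of culture ATG8E had fallen to 0.276 of its time 0 level, ATG8C and ATG8F had fallen to 0.696 and 0.693, and ATG8B had risen 1.4-fold. The other 5 members did not pass the test. The call rate for the family was therefore 4 of 9, or 44.4%, where 68.8% of all 19078 tested genes were called at an adjusted p below 0.05 (39.2% higher and 29.5% lower). The median log2 difference of the 9 members was -0.14 and that of all tested genes 0.09. Without regard to sign the medians were 0.28 for the members and 0.51 for all tested genes. The time 0 and 2-day libraries did not overlap in 7 of the 9 members, where they did not overlap in 86% of tested genes. All tests are limma fits of log2(TPM + 1) over the whole table with Benjamini-Hochberg adjustment, and log2 differences are on that scale.

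**Figure D1:**
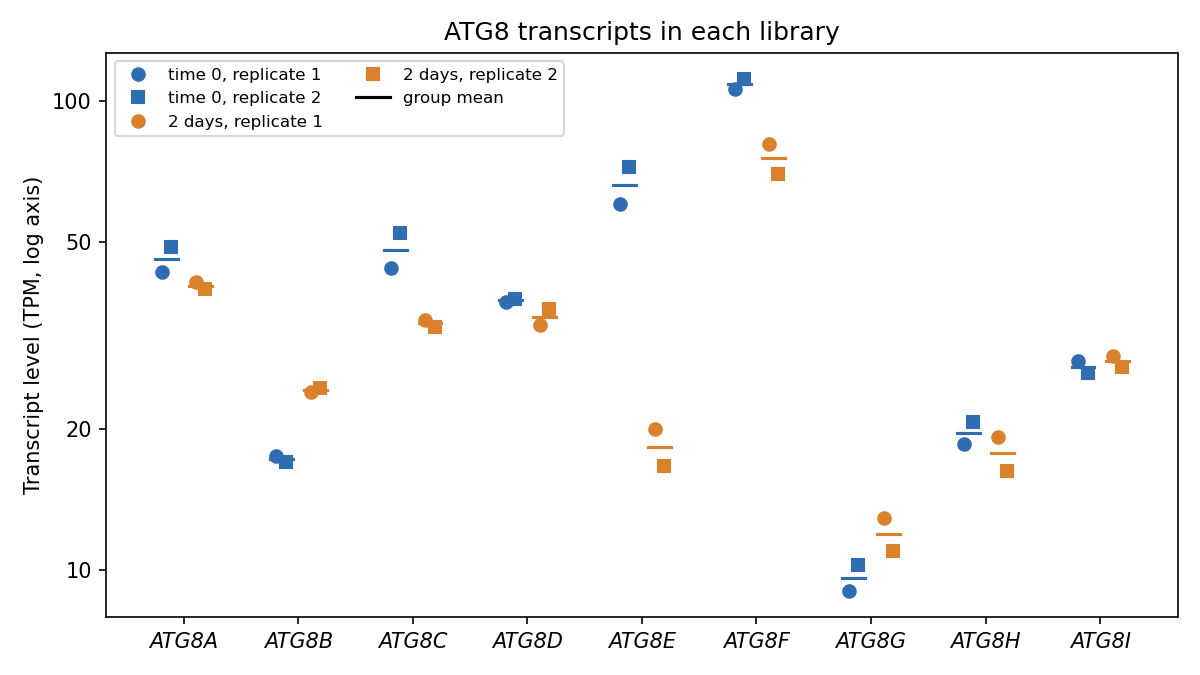
Level of each ATG8 transcript in TPM (log axis) in the 2 time 0 libraries (blue) and the 2 libraries from 2 days of culture (orange), with symbols for replicates and short lines for group means. ATG8F is the highest member in all 4 libraries, and ATG8E drops from 60.4 and 72.28 TPM to 19.95 and 16.66 TPM.

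ATG8E belongs to the group of ATG8E to ATG8G, which held the 2 most abundant transcripts of the family at time 0. The level of ATG8E was 60.4 and 72.28 TPM at time 0 and 19.95 and 16.66 TPM at 2 days. Every 2-day value was far below both time 0 values, a gap wider than the spread within either group. The log2 difference was -1.80 ± 0.12 (SE, n = 2 libraries per group, limma adjusted p = 0.000154), a 3.62-fold fall of the mean in TPM. Its size exceeded that of 88.7% of tested genes, and its 95% interval, from -2.12 to -1.49, lay below the intervals of the other 8 members. Whether it differed from theirs was not tested. At time 0 ATG8E stood above 86.2% of tested genes in mean level, and at 2 days above 54.5%.

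ATG8F was the most abundant member in every library. Its level was 106.04 and 111.63 TPM at time 0 and 81.04 and 69.88 TPM at 2 days. The groups did not overlap, and the fall was 1.44-fold (log2 difference -0.53 ± 0.08, SE, n = 2, limma adjusted p = 0.00343). ATG8G was the least abundant member, at 9.01 and 10.25 TPM at time 0 and 12.89 and 10.99 TPM at 2 days. Its 2-day values were both above its time 0 values, but the difference did not pass (log2 difference 0.28, 95% interval -0.0033 to 0.57, limma adjusted p = 0.0719). In the sequences used, ATG8G had the highest protein identity with ATG8E, 78.5%. ATG8F had 69.2%, a value under the limit given above for ATG8F, so which of them is closest to ATG8E is not settled here.

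In the group of ATG8A to ATG8D, ATG8B rose and ATG8C fell. ATG8B stood at 17.48 and 17.03 TPM before culture and at 23.97 and 24.47 TPM after 2 days. Replicates differed by no more than 0.5 TPM in either group, and the rise of 0.47 ± 0.06 on the log2 scale (SE, n = 2) had a limma adjusted p of 0.00164. ATG8C stood at 44.15 and 52.31 TPM before culture and at 34.18 and 32.96 TPM after 2 days. The time 0 libraries of ATG8C were further apart than those at 2 days, without overlap between the groups (log2 difference -0.51 ± 0.09, SE, n = 2, limma adjusted p = 0.00563). Without 2-day replicate 2 the call for ATG8C was lost (log2 difference -0.48, limma adjusted p = 0.0638, in a range of 0.00211 to 0.0638 over its 12 alternatives).

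ATG8A, the closest relative of ATG8B with 87.7% identical residues, did not rise with it. Its level was 43.23 and 48.78 TPM at time 0 and 41.06 and 39.69 TPM at 2 days, so that both 2-day values lay just below the time 0 values (log2 difference -0.18, 95% interval -0.38 to 0.01, limma adjusted p = 0.0841). ATG8D was at 37.32 and 37.8 TPM before culture and at 33.25 and 35.94 TPM after 2 days (log2 difference -0.12, 95% interval -0.28 to 0.05, limma adjusted p = 0.16). These small differences depend on the scaling of the libraries. After quantile normalization ATG8A passed as lower (adjusted p = 0.0188). After TPM were rescaled to a total that leaves out organelle genes and the 100 genes of highest level, both ATG8A (adjusted p = 0.0144) and ATG8D (adjusted p = 0.0201) did. Over their 12 alternatives the adjusted p ran from 0.0144 to 0.427 for ATG8A and from 0.0201 to 0.426 for ATG8D, which also passed without 2-day replicate 2 (adjusted p = 0.0478).

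Neither of the members without a tail to trim, ATG8H and ATG8I, passed the test. ATG8H was at 18.58 and 20.66 TPM before culture and at 19.25 and 16.24 TPM after 2 days. ATG8I was at 27.87 and 26.36 TPM before culture and at 28.59 and 27.13 TPM after 2 days. The groups overlapped in both genes, in contrast to the other 7 members. The log2 difference of ATG8H was -0.14 (95% interval -0.41 to 0.13, limma adjusted p = 0.285) and that of ATG8I was 0.04 (95% interval -0.13 to 0.21, limma adjusted p = 0.629), with a sign for ATG8I that turned negative after either rescaling (-0.03 and -0.08). The interval of ATG8H reaches well below 0, so these values do not show that its level was unchanged.

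**Figure D2:**
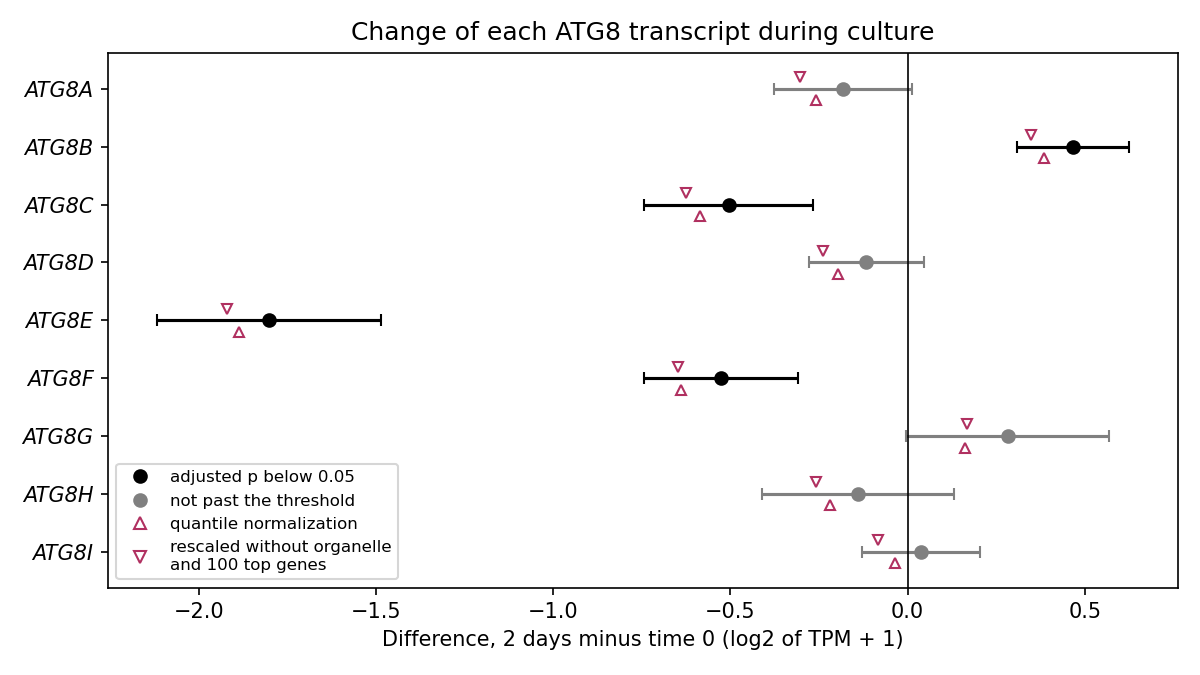
Difference between 2 days and time 0 on the log2(TPM + 1) scale for each member, with 95% intervals from limma (black where the adjusted p was below 0.05, grey otherwise) and open triangles for the values after quantile normalization and after rescaling. ATG8E, at -1.80, stands apart from the other 8 members, which lie between -0.53 and 0.47, and both rescalings move every point to the left.

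The summed level of the family was 364.1 and 397.1 TPM at time 0 and 294.2 and 274 TPM at 2 days, so both cultured explant libraries held less ATG8 transcript in all (means 380.6 ± 23.35 and 284.1 ± 14.3 TPM, SD, n = 2). No test was made of this sum. Most of the loss came from the group of ATG8E to ATG8G, whose sum went from 184.8 ± 13.23 to 105.7 ± 11.56 TPM. The sum of ATG8A to ATG8D was 149 ± 9.716 TPM at time 0 and 132.8 ± 0.4243 TPM at 2 days. That of ATG8H and ATG8I was 46.74 ± 0.4031 TPM at time 0 and 45.6 ± 3.161 TPM at 2 days. With ATG8E and ATG8F set aside, the other 7 members summed to 197.6 and 213.2 TPM at time 0 and to 193.2 and 187.4 TPM at 2 days.

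The makeup of the pool shifted with these changes. ATG8E supplied 16.6% and 18.2% of the summed ATG8 TPM at time 0 and 6.78% and 6.08% at 2 days. ATG8B went the other way, from 4.8% and 4.29% to 8.15% and 8.93%. ATG8F remained the largest part, with 29.1% and 28.1% at time 0 and 27.5% and 25.5% at 2 days. A share can rise because other members fell: ATG8I took 7.65% and 6.64% of the sum at time 0 and 9.72% and 9.9% at 2 days with hardly any difference in its own level.

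**Figure D3:**
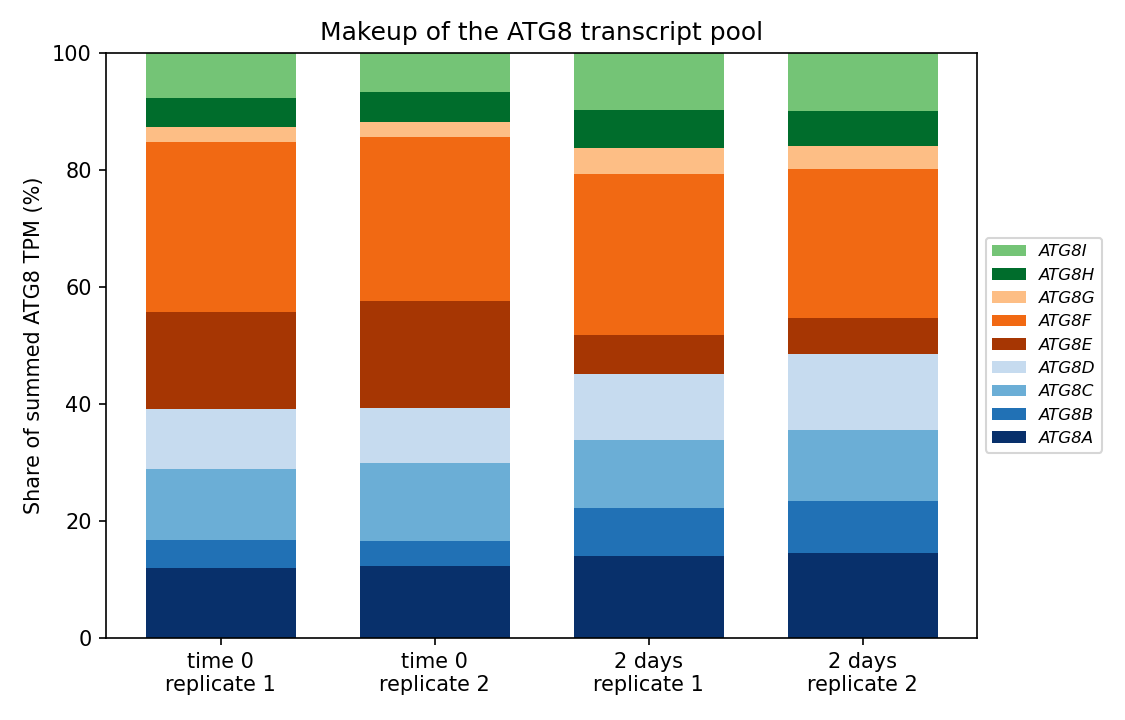
Share of each member in the summed ATG8 TPM of each library, in percent, with blue for ATG8A to ATG8D, orange for ATG8E to ATG8G and green for ATG8H and ATG8I. The dark orange segment of ATG8E shrinks from 16.6% and 18.2% to 6.78% and 6.08%, and the orange group as a whole from 48.19% and 48.89% to 38.71% and 35.6%.

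At time 0 the order of the levels was ATG8F, ATG8E, ATG8C, ATG8A, ATG8D, ATG8I, ATG8H, ATG8B and ATG8G, with 11.3-fold between the highest and the lowest mean. Only the neighbours ATG8C and ATG8A overlapped between libraries in that order. At 2 days the order was ATG8F, ATG8A, ATG8D, ATG8C, ATG8I, ATG8B, ATG8E, ATG8H and ATG8G, with 6.32-fold between the highest and the lowest mean. There the neighbours ATG8D and ATG8C overlapped, as did ATG8E and ATG8H. ATG8E moved from the second place to the seventh, which leaves it level with ATG8H, a gene it had exceeded by far at time 0.

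The genes whose profile over the 4 libraries was nearest to that of ATG8E, by Euclidean distance between centred log2(TPM + 1) values among 8138 tested genes with a symbol, were CIPK3, MAKR6 and IAA2. CIPK3 (AT2G26980), a protein kinase that works with calcium sensors, had the smallest distance of 0.0493, with 126.97 and 145.93 TPM at time 0 and 41.5 and 34.21 TPM at 2 days. MAKR6 (AT5G52900) was at a distance of 0.0799, with 50.55 and 56.53 TPM at time 0 and 16.14 and 12.92 TPM at 2 days. IAA2 (AT3G23030), a repressor of auxin responses, was at a distance of 0.0971, with 1353.48 and 1527.14 TPM at time 0 and 419.66 and 366.67 TPM at 2 days. Like ATG8E, all 3 were higher in replicate 2 than in replicate 1 at time 0 and lower in it at 2 days. Because they were picked by distance over these same libraries, that shared order largely follows from the choice. Also, 4 libraries are few points for a likeness.

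Among the other genes of the pathway, 38 of 40 listed and annotated genes were tested, of which 14 fell and 7 rose while 17 did not pass. Those that rose include TGA9, which passed the limit for testing only through its 2-day level. Its call is not read below, but it is part of the counts and shares given here. The share called was 55.3%, below the 68.8% of all tested genes, and the median log2 difference was -0.14, the same as in the ATG8 family to this precision. The split leaned further to lower after quantile normalization and after rescaling, each with 4 higher and 18 lower. Over all tested genes 57.05% of calls were higher, against 47.05% and 49.24% under those scalings. The counts also moved on leaving out single libraries. So did the share called over all tested genes, which fell each time. With 8 more listed genes, whose names the annotation does not give and which are counted but not named, the list had 46 tested members, of which 8 were higher and 18 lower (56.5% called).

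The kinase complex that starts autophagosome formation had 4 tested members with a name, of which 2 were lower and 1 higher, and 7 in all, of which 3 were lower and 2 higher (71.4% called, near the 68.8% of all tested genes). ATG13 (AT3G49590), its regulatory subunit, fell from 24.04 and 23.21 TPM to 12.66 and 11.01 TPM (log2 difference -0.94, limma adjusted p = 0.000441). Another locus annotated as ATG13, AT3G18770, named after its values were seen, was at 3.04 and 2.99 TPM before culture. After 2 days AT3G18770 was at 3.95 and 3.64 TPM and did not pass (log2 difference 0.26, limma adjusted p = 0.0873). ATG11 (AT4G30790), a scaffold of the complex, rose from 7.95 and 8.12 TPM to 10.35 and 10.69 TPM (log2 difference 0.35, limma adjusted p = 0.0107). ATG11 no longer passed on leaving out time 0 replicate 1 (adjusted p = 0.0871) or replicate 2 (adjusted p = 0.0726), or after quantile normalization (adjusted p = 0.0597), in a range of 0.00902 to 0.0871. Another gene lies opposite to 12.2% of its windows.

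In the phosphatidylinositol 3-kinase complex, which marks the membrane where autophagosomes form, 2 of 3 tested members with a name were lower. In all, 4 of 6 were lower (66.7% called, near the 68.8% of all tested genes). The subunit VPS15 (AT4G29380) fell from 7.98 and 8.06 TPM to 4.72 and 4.17 TPM (log2 difference -0.73, limma adjusted p = 0.00171), with 6.3% of its windows opposite another gene. The kinase VPS34 (AT1G60490) fell from 23.96 and 25.26 TPM to 19.71 and 19.31 TPM (log2 difference -0.32, limma adjusted p = 0.00764), a call that ended on leaving out time 0 replicate 2 (adjusted p = 0.0811, in a range of 0.00204 to 0.0811). Of the 9 tested genes for membrane delivery, ATG2, ATG9 and the ATG18 genes, 3 were lower and 0 higher. The share called was 33.3%, below the 68.8% of all tested genes. The other 6 did not pass in the limma fit, where 1 was higher at an unadjusted p below 0.05. ATG2 (AT3G19190), a lipid transfer protein, fell most, from 13.93 and 13.99 TPM to 8.2 and 6.01 TPM (log2 difference -0.90, limma adjusted p = 0.00332). ATG18E (AT5G05150), named after its values were seen, was listed at 0 in all 4 libraries.

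The conjugation genes, whose products trim ATG8 or attach it to the membrane, were 3 lower and 1 higher among 9 tested. The share called was 44.4%, below the 68.8% of all tested genes. ATG12B (AT3G13970), a ubiquitin-like protein of the attaching complex, fell from 14.14 and 14.9 TPM to 8.37 and 7.25 TPM (log2 difference -0.82, limma adjusted p = 0.000984). Its copy ATG12A (AT1G54210), named here after its values were seen, was at 16.5 and 12.81 TPM before culture and at 11.92 and 11.46 TPM after 2 days (log2 difference -0.29, limma adjusted p = 0.0942). It passed as lower without time 0 replicate 2 (adjusted p = 0.0317) and after quantile normalization (adjusted p = 0.0479) and rescaling (adjusted p = 0.039), in a range of 0.0317 to 0.434. The annotation gives 2 loci for C54 peptidases, the family of ATG4. AT3G59950 was at 23.91 and 26.05 TPM before culture and at 30.13 and 28.42 TPM after 2 days (log2 difference 0.22, limma adjusted p = 0.0413). That call held in 3 of 12 alternatives and was lost without any 1 of the 4 libraries (adjusted p = 0.0726 to 0.249). AT2G44140, also named after its values were seen, was at 25.97 and 25.45 TPM before culture and at 22.01 and 21.51 TPM after 2 days (log2 difference -0.23, limma adjusted p = 0.019), with 40.6% of its windows opposite another gene. AT2G44140 no longer passed on leaving out time 0 replicate 1 (adjusted p = 0.143) or replicate 2 (adjusted p = 0.108), or with replicate numbers as a block (adjusted p = 0.0557), in a range of 0.00419 to 0.143.

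Proteins that bind ATG8 or link cargo to it had 4 higher and 1 lower among 7 tested members with a name, and 4 higher and 2 lower of 9 in all. The share called, 71.4% and 66.7%, is near that of all tested genes. The paralogs DSK2A and DSK2B, singled out after their values were seen, are 2 of the 4. They share 6.3% and 6.9% of their windows with each other, and the effect of this on their separate levels was not tested. RPN10 (AT4G38630), a proteasome subunit that serves as a receptor when proteasomes are degraded by autophagy, rose from 63.6 and 63.48 TPM to 112.12 and 120.98 TPM (log2 difference 0.86, limma adjusted p = 0.000149). ATI1 (AT2G45980), a plant ATG8-interacting protein, fell from 54.62 and 59.28 TPM to 47.61 and 45.79 TPM (log2 difference -0.28, limma adjusted p = 0.0128). ATI1 no longer passed on leaving out replicate 2 of time 0 (adjusted p = 0.111) or of 2 days (adjusted p = 0.0654), in a range of 0.00283 to 0.111. NBR1 (AT4G24690), the receptor for ubiquitinated aggregates, was named after its values were seen and stood at 101.42 and 101.6 TPM before culture and at 113.11 and 103.24 TPM after 2 days (log2 difference 0.09, limma adjusted p = 0.253). NBR1 passed as higher without 2-day replicate 2 (adjusted p = 0.03, in a range of 0.03 to 0.804), and its sign turned under both scalings.

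Upstream regulators were 3 lower and 1 higher of 6 tested (66.7% called with TGA9 included, near the 68.8% of all tested genes). The 1 higher was TGA9 (AT1G08320), a bZIP transcription factor reported to activate ATG8 genes, at 0 and 0.04 TPM before culture and at 4.56 and 3.65 TPM after 2 days. TGA9 passed the limit for testing only through its 2-day level, so its call is not read, and with time 0 libraries at or next to 0 its log2 difference follows the pseudocount (0.86 with 5 and 5.14 with 0.1) and no fold is given. KIN11 (AT3G29160), a catalytic subunit of the energy-sensing SnRK1 kinase, fell from 29.73 and 32.03 TPM to 26.3 and 24.27 TPM (log2 difference -0.28, limma adjusted p = 0.0207). KIN10 (AT3G01090), the other catalytic subunit listed, was at 41.2 and 40.29 TPM before culture. At 2 days it was at 45.1 and 41.84 TPM (log2 difference 0.09, limma adjusted p = 0.248). The other regulators called lower were RAPTOR1B and LST8-1, and these and KIN10 were named after their values were seen. KIN11 no longer passed on leaving out time 0 replicate 1 (adjusted p = 0.0621) or replicate 2 (adjusted p = 0.148), or replicate 2 of 2 days (adjusted p = 0.0818), in a range of 0.00459 to 0.148.

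**Figure D4:**
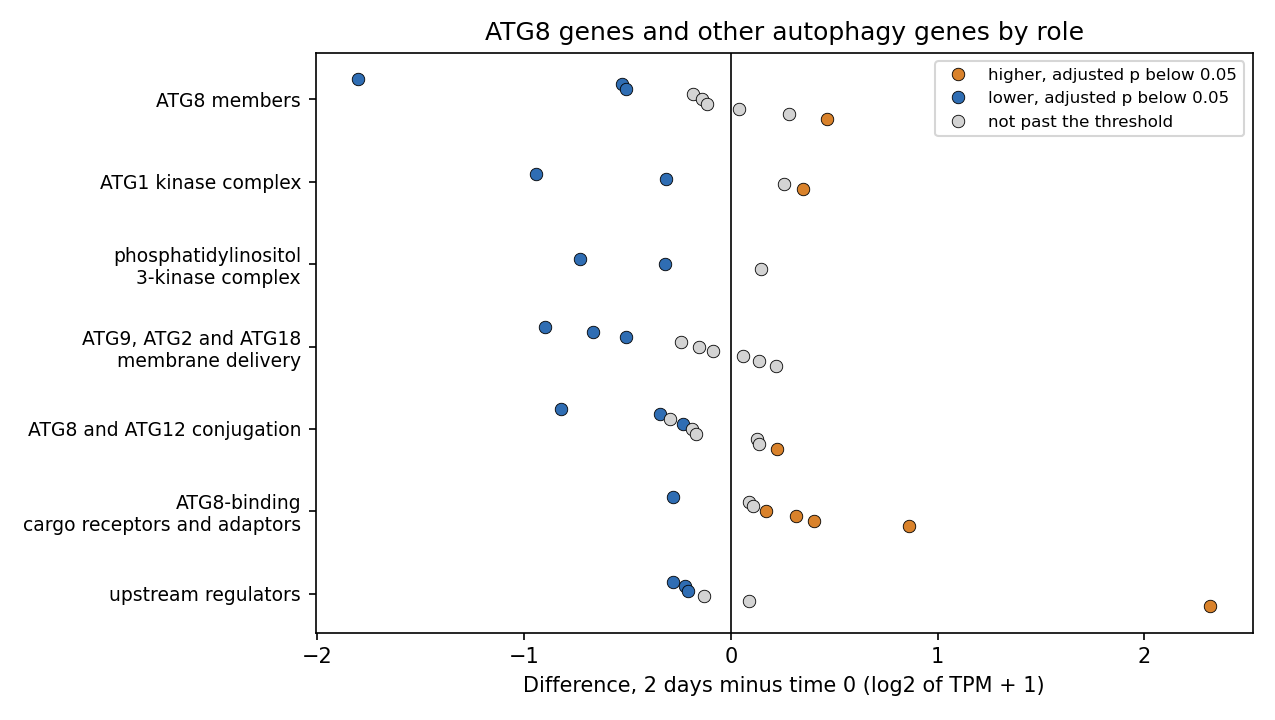
Difference between 2 days and time 0 on the log2(TPM + 1) scale for the 9 ATG8 members and for 38 other tested autophagy genes grouped by role, coloured by limma call. ATG8E lies furthest to the left at -1.80, and the point furthest to the right is TGA9, near 0 TPM at time 0, whose place on this axis is set by the pseudocount.

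Markers of leaf tissues differed between the groups. Summed markers of leaf mesophyll, the photosynthetic tissue, were at 47370 and 45244 TPM before culture and at 10483 and 8392 TPM after 2 days. The summed epidermis markers went from 338.85 and 329.93 to 144.2 and 128.36 TPM, but not all moved the same way. ATML1 was at 73.3 and 69.29 TPM and then at 25.17 and 19.89 TPM, PDF1 at 201.75 and 193.96 TPM and then at 2.63 and 1.28 TPM, whereas CER5 rose from 63.8 and 66.68 TPM to 116.4 and 107.19 TPM (limma adjusted p = 0.000296). Summed guard cell markers went from 38.38 and 41.72 to 17.52 and 17.35 TPM. Summed xylem markers went from 238.99 and 244.25 to 124.05 and 127.64 TPM, through XCP1 and XCP2, whereas IRX3 was at 10.71 and 10.74 TPM before culture and at 12.52 and 11.34 TPM after it. The phloem companion cell markers stood at 98.89 and 93.49 TPM before culture and at 103.52 and 105.6 TPM after 2 days, and the root markers LBD16 and WOX5 together at 0.03 and 0.13 TPM and then at 21.3 and 25.47 TPM. In these bulk samples fewer cells of a type and less RNA per cell cannot be told apart, and the part of these shifts in the ATG8 values was not tested.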

How the data were processed

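RNA of 4 libraries, 2 at time 0 and 2 after 2 days of culture, was sequenced. The authors deposited TPM per gene, rounded to 2 decimals and summing to 1000000 per library. The tools named are RSEM 1.3.2, STAR 2.7.2b and Trim Galore 0.5.0, with the TAIR10 build, per the submitters' processing notes. TPM keeps no depth, so the depth is unknown and no counting interval was given.

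R 4.3.3 with limma 3.58.1 was used to fit log2(TPM + 1) of the 19078 genes, of 37686, whose mean reached 1 TPM, with a trended prior variance and 2 residual degrees of freedom per gene. Alternatives covered scaling, pseudocount, filter, trend, block and each library left out. P-values were adjusted over all tested genes, called below 0.05. The members and gene lists were chosen with earlier results of these data known. The rule for named genes took the 9 members, the 3 profiles nearest to the most changed member and, among listed genes whose name the annotation gives, the called gene with the largest rise and fall in each role and all called genes in a role of at most 3. Genes outside it are marked in the text. Of 48 listed pathway genes 40 paired with the annotation.

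Names, coding sequences and shared windows came from RefSeq's TAIR10.1 genome and annotation, read with Python 3.11.15 and Biopython 1.88. Sequences were matched by locus identifier. Because the table's build is TAIR10, no coordinates are given. For each member the shortest annotated coding sequence with the conserved glycine near its end was used, and identities are over aligned residues.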

Additional observations from a re-analysis of the deposited data

How the results depend on the processing

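ATG8B, ATG8E and ATG8F kept their direction and their call in all 12 alternatives, with log2 differences of 0.35 to 0.49, -1.93 to -1.61 and -0.65 to -0.42. ATG8G and ATG8H kept their direction and did not pass in any. Members called lower numbered 5 in place of 3 after rescaling (organelle genes and the 100 of highest level left out of the total), where ATG8A (-0.30) and ATG8D (-0.24) passed; ATG8A also passed after quantile normalization (-0.26). ATG8I reversed to -0.035 after quantile normalization and to -0.082 after rescaling. The summed ATG8 level differed by -0.52 and -0.55 (log2) under those scalings, against -0.42 as deposited. Under them the median over the tested genes was -0.06 and -0.02, and 0.09 as deposited. NBR1 reversed to -0.017 and -0.034. Other pathway genes called higher, TGA9 included, numbered 4 under each scaling in place of 7. Leaving out each library in turn gave 3 to 9 pathway genes higher and 7 to 16 lower, log2 differences of -0.63 to -0.39 for ATG8C, -0.27 to -0.096 for ATG8A, 0.18 to 0.39 for ATG8G, -0.26 to -0.024 for ATG8H, -0.17 to -0.062 for ATG8D and -0.00096 to 0.077 for ATG8I, and a sum difference of -0.48 to -0.36. A group left with 1 library was assumed to vary like the other. With the replicate number as a block, 7101 genes were higher and 5283 lower, 1 member was higher and 3 lower, and 5 pathway genes were higher and 10 lower. Same-numbered libraries did not deviate together (r = -0.0674 across genes). With 2 libraries per group this cannot show whether the numbers mark a pairing, which the labels do not state. The cause of these movements was not tested, and unknown depth limits the reading of the lowest values, such as those of TGA9.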
